A study of Mus musculus with 6 samples.

Results

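The genes described here are 8 components of the Hedgehog pathway: the ligand Shh, the receptor Ptch1, the ligand-binding inhibitor Hhip, the membrane protein Smo, the cytoplasmic inhibitor Sufu and the transcription factors Gli1, Gli2 and Gli3. They were chosen by name, as the core of the pathway, out of 21853 protein-coding genes in the GENCODE annotation of the mouse genome build mm10. The assay was ATAC-seq, which reads out accessible chromatin because a transposase cuts and tags DNA where it is not packed away. It was run on skeletal stem and progenitor cells (SSPCs) cultured from tibial and femoral bone marrow of untreated C57BL/6 mice and taken at their first passage. One group was young and the other middle-aged, with 3 libraries in each, and the ATAC-seq labels give no age in months. The marrow was plated without a described sort, so the SSPCs are those that grew in the flask. The labels do not tie each library to a separate mouse, so p-values measure the spread between libraries, which may be technical.

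Hedgehog signalling works by relief of inhibition. Without ligand, Ptch1 holds Smo inactive, and Sufu together with kinases keeps the Gli proteins from activating transcription, with Gli3 and, to a lesser degree, Gli2 cut into repressor forms. When Shh or a related ligand binds Ptch1, Smo enters the primary cilium and full-length Gli proteins reach the nucleus. Ptch1, Hhip and Gli1 are themselves targets of the pathway, so that Ptch1 and Hhip form a negative feedback. In the skeleton the pathway is best known for driving osteoblast formation during bone development, and Gli1 marks osteogenic progenitors in the growing and adult skeleton.

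The data are lists of called peaks, one list per library. Young lists were between 27628 (young 3) and 43941 peaks long, and middle-aged lists between 46364 and 48344. Relative depth, read from the background over the genome, ran from 1.65 reads per base in young 3 to 3.75 in young 1, with the middle-aged libraries between 2.40 and 2.79. Each peak carries a fold enrichment over the local background and a −log10 q, and it was ranked by −log10 q within its own list, so that a percentile rank of 100 is the best peak of a library. A gene has a TSS peak when a called peak overlaps the 1000 bp either side of any of its protein-coding transcription start sites (TSSs). With 3 libraries against 3, an exact permutation test, which runs through the 20 ways to split the libraries, cannot give a two-sided p below 0.1, so no single gene could pass 0.05.

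The label of the cells was compared with marker genes. Of 9 SSPC markers, 3 (Kitl, Ebf3 and Runx2) had a TSS peak in all 6 libraries, while Lepr and Prrx1 had none in any. Pdgfrb had one in 5 libraries, Cxcl12 and Pdgfra in 4 and Grem1 in 2. Of 7 macrophage and blood markers, 6 had a TSS peak in all 6 libraries, among them Ptprc, which encodes the pan-leukocyte protein CD45. Csf1r had one in 2 young libraries only. Of 5 endothelial markers, Cdh5, which encodes VE-cadherin, had one in all 6 libraries, at ranks between 85.4 and 89.2, Kdr in 5, Pecam1 in 3, Tek in 1 and Emcn in none. Of 4 neural and epithelial markers, Epcam had one in 2 libraries (young 2 and middle-aged 1) and the others had none in any. The number of SSPC markers with a TSS peak was 7, 5 and 3 in young and 5, 6 and 7 in middle-aged libraries, that of macrophage and blood markers was 6, 7 and 7 against 6, 6 and 6, and that of endothelial markers was 2, 2 and 2 against 4, 3 and 2. The part of other cell types in the values below was not tested, and in these bulk libraries more cells with an open site cannot be told apart from a site that is more open per cell.

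Of the 8 genes, 5 had a TSS peak in all 6 libraries: Smo, Sufu, Gli1, Gli2 and Gli3. Over all protein-coding genes the share was 48.4%. The ligand Shh had none in any library, and the pathway targets Ptch1 and Hhip had one in 2 libraries each. Counted by library, 5, 6 and 5 of the 8 genes had one in young 1, 2 and 3, against 5, 6 and 7 in the middle-aged libraries. The means were 5.33 ± 0.577 (SD, n = 3) and 6 ± 1 (SD, n = 3), and the groups overlapped (exact permutation test, p = 0.7). Over all genes, a mean of 11715 had one in young and 12592 in middle-aged libraries. With each list shortened to the 27628 best peaks, the length of the shortest list, the direction turned, with means of 4.67 in young and 4 in middle-aged libraries. The means over all genes on the shortened lists were not counted. None of the 5 genes ranked higher in every middle-aged than in every young library, a pattern seen in 30.6% of the 10569 genes with a TSS peak in all 6 libraries. None ranked lower without overlap, where the share over all genes was 0.274%. Without young 2, 3 of the 5 (Smo, Sufu and Gli3) ranked higher without overlap, as did 58.7% of all genes with a TSS peak in the 5 libraries left.

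**Figure D1:**
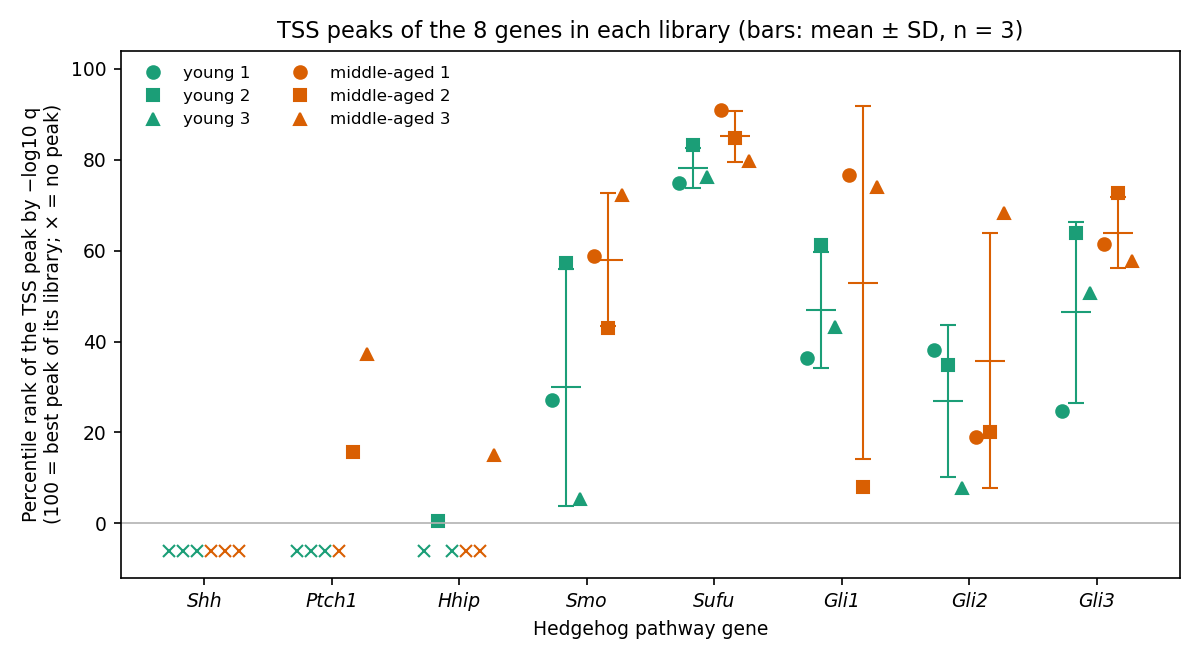
Percentile rank of the TSS peak by −log10 q (y axis, 100 is the best peak of its library) for the 8 genes (x axis), with 1 symbol per library, young in green and middle-aged in orange, a cross below the zero line where a library had no TSS peak, and bars at the mean ± SD (n = 3). The symbols of young and middle-aged libraries overlap in all 5 genes with a peak in every library, and in each library Sufu ranks above the other genes, between 74.9 and 91.0.

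Shh encodes the secreted ligand Sonic hedgehog. No library had a called peak within 1000 bp of its TSS on chromosome 5 or anywhere in the gene body. The only peak of its locus, taken for each gene as the gene body and 20 kb upstream, lay 2.7 kb upstream of the TSS (chr5:28469831-28470030) in middle-aged 2, at a rank of 21.6 and a fold of 4.71, inside the noncoding genes 9530036O11Rik and Gm26894. An absent peak says that no peak passed the caller's limit at this depth, not that the site was closed. The related ligand genes Ihh and Dhh had no TSS peak in any library either.

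Ptch1 encodes the receptor that binds the ligand and holds Smo inactive, and its transcription rises when the pathway is active. It has 5 annotated protein-coding TSSs on the minus strand of chromosome 13, spread from 63564326 to 63573598. No young library had a peak within 1000 bp of any of them, while middle-aged 2 and middle-aged 3 each had 1 such peak and middle-aged 1 had none. A TSS peak in at least 2 more middle-aged than young libraries occurred in 4.51% of the 13447 genes with a TSS peak in any library, and the opposite in 0.178%; Ptch1 was the only one of the 8 genes with the former and none had the latter.

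The 2 Ptch1 peaks were different sites. In middle-aged 2 the peak (chr13:63564873-63565180) had its summit 230 bp downstream of the TSS at 63565274, with a rank of 15.8 and a fold of 3.15. In middle-aged 3 it lay at chr13:63566228-63566448, with its summit at -602 bp from the TSS at 63565735, a rank of 37.3 and a fold of 3.45. Both are in an intron of the longest transcript. Neither was in the lists when each was shortened to 27628 peaks, so that Ptch1 then had a TSS peak in 0 libraries.

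The peak of middle-aged 3 is printed because it was the only one of the 34 regions called in the loci of the 8 genes whose sequence held the letters GACCACCCA, a core of the binding site of Gli proteins. The match stood at chr13:63566435-63566443, centred at -704 bp from the TSS at 63565735. The sequence is the 300 bp about the summit (mm10, chr13:63566187-63566486, minus strand, 5′ to 3′), with the GLI letters, which read on the other strand here, and an AP-1 site (TGANTCA) in capitals. The AP-1 site, at chr13:63566194-63566200, lies outside the called peak. The region 5.5 kb downstream of the most upstream TSS (chr13:63567932-63568231 of it, minus strand) is shown because it was the strongest of the Ptch1 locus and lay in every library, and it held no match to the motifs searched, hence no capitals.
Ptch1 +7.3 kb: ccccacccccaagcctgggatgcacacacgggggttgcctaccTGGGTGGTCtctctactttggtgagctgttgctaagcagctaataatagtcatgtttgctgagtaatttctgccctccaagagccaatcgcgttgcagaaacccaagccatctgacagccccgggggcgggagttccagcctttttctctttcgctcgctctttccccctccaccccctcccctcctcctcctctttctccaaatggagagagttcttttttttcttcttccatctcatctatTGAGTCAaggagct
Ptch1 +5.5 kb: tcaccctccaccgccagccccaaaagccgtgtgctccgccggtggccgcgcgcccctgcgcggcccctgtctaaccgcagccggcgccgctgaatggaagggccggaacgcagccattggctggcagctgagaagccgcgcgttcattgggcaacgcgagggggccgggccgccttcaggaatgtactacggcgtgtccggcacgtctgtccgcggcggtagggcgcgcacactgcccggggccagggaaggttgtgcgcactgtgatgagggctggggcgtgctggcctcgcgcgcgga

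This second Ptch1 region (chr13:63567692-63568279) is intronic, 588 bp wide over all libraries, and lies at the start of A930032L01Rik, an annotated transcript still to be experimentally tested. The region is upstream of its nearest protein-coding TSS, at 63565735, and a TSS window of 2000 bp reached it. Its rank was 87.4, 88.2 and 76.9 in young 1, 2 and 3, against 88.5, 89.7 and 90.8 in middle-aged 1, 2 and 3. All 3 middle-aged values lay above all young values, with means of 84.2 ± 6.32 and 89.7 ± 1.18 (SD, n = 3), a difference of 5.53 (exact permutation test, p = 0.1). Middle-aged 1 lay only just above young 2. A higher rank without overlap was found in 24.3% of the 22403 regions called in all 6 libraries, and in 1 of the 8 such regions in the loci of the Hedgehog genes. The fold at this region was 8.32, 9.05 and 7.43 in young and 9.57, 9.64 and 9.46 in middle-aged libraries, also without overlap. By fold, 38.4% of all genes with a TSS peak in every library were higher without overlap. The share by fold over all regions was not counted. The accessible site that every library shared at Ptch1 was not within 1000 bp of an annotated protein-coding TSS, and the sites nearer to a TSS were each called once.

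Hhip encodes a membrane-anchored decoy that binds Hedgehog ligands and is induced by the pathway. Its single region (chr8:80057708-80058254) covers the 5′ UTR and was called in young 2 and middle-aged 3 alone. The peak of young 2 had a rank of 0.465 and a fold of 3.35, among the weakest peaks of that library. The peak of middle-aged 3 had a rank of 15.0 and a fold of 4.48. One library of each age held it, and there were no other peaks in the 112 kb of the locus.

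Smo encodes the membrane protein that passes the signal on once Ptch1 is occupied. Its TSS region (chr6:29735319-29736426) spans the promoter and the first exon. Among the 5 genes with a TSS peak in every library, Smo had the largest difference in rank between the ages. Its best peak was not the same site in every library. The rank was 27.2, 57.3 and 5.30 in young 1, 2 and 3, against 58.8, 43.0 and 72.3 in middle-aged 1, 2 and 3. Young 2 lay above middle-aged 2, so the groups overlapped, with means of 29.9 ± 26.1 and 58.0 ± 14.6 (SD, n = 3) and a difference of 28.1 (exact permutation test, p = 0.2). The lowest value was that of young 3, the library with the lowest background and the shortest list, and without young 3 the difference was 15.8. With equally long lists it was 14.5.

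The fold enrichment at Smo was 4.49, 6.61 and 4.53 in young and 7.07, 5.88 and 8.85 in middle-aged libraries, a difference of 0.48 on the log2 scale (exact permutation test, p = 0.2). The region had a double shape. In young 1, young 2, middle-aged 1 and middle-aged 2, separate peaks had their summits between -178 and -168 bp and between 482 and 557 bp from the TSS at 29735694. In young 3 only the downstream peak was called, 200 bp wide, and in middle-aged 3 a single peak of 1039 bp covered both sites. The ranks given above are those of the best peak of each library. It was the upstream peak in young 1 and middle-aged 2, and the downstream peak in young 2, young 3 and middle-aged 1. The difference in rank at Smo thus compares unlike sites.

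Sufu encodes the cytoplasmic inhibitor that binds Gli proteins, and it had the highest-ranking TSS peak of the 8 genes. The region (chr19:46396632-46397105) had its summits between -79 and -22 bp from the TSS. Its edge also lies within 1000 bp of the start of the neighbouring gene Actr1a, which encodes an actin-related protein of the dynactin complex, so that the peak cannot be assigned to Sufu alone. Its rank was 74.9, 83.2 and 76.3 in young and 91.0, 84.8 and 79.8 in middle-aged libraries. Young 2 lay above middle-aged 3, and the means of 78.1 ± 4.44 and 85.2 ± 5.62 (SD, n = 3) differed by 7.05 (exact permutation test, p = 0.2), or by 4.15 without middle-aged 1. The fold was 6.79, 8.92 and 8.48 in young and 11.5, 9.27 and 7.36 in middle-aged libraries, again overlapping (0.20 on the log2 scale, exact permutation test, p = 0.4).

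Summit height, the pileup at the summit divided by the genome-wide background of its library, separated the ages at Sufu. It was 15.2, 23.7 and 22.5 times the background in young and 37.0, 29.1 and 24.0 times in middle-aged libraries, with young 2 and middle-aged 3 nearly equal (exact permutation test, p = 0.1, the smallest possible). The same separation was found in 60.7% of all genes with a TSS peak in every library, against 1 of the 5 Hedgehog genes. The promoter sequence before the TSS is printed because it lies under the highest-ranking TSS peak of the 8 genes (mm10, chr19:46396667-46396895, plus strand). It held no GLI, AP-1, EBF or RUNX match, so it has no capitals.
Sufu promoter: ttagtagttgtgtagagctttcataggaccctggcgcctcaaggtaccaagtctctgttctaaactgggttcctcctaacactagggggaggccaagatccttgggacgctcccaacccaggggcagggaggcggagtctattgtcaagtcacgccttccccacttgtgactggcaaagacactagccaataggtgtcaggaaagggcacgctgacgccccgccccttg

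A pair of further regions upstream of Sufu were called in every library, 1.1 kb (chr19:46395657-46395938) and 1.7 kb (chr19:46395046-46395467) before the TSS. The latter, the highest-ranking Sufu region away from the TSS windows, had ranks of 83.7, 80.0 and 66.0 in young and 82.9, 85.4 and 82.2 in middle-aged libraries, which overlapped (exact permutation test, p = 0.3). Both overlap Actr1a itself and cannot be assigned to Sufu. In the body of Sufu, 4 sites were called, none in all libraries. The strongest, 90.0 kb from the TSS in the 3′ UTR (chr19:46486720-46487043), ranked 23.0 and 63.6 in young 2 and 3, against 39.3 and 37.5 in middle-aged 1 and 2. A site at 86.3 kb (chr19:46483029-46483310) was called in middle-aged 1 and 3 at 3.64 and 37.7, one at 82.1 kb in young 2 alone at 12.1 and one at 61.0 kb in middle-aged 3 alone at 2.496. The body sites thus had no common direction between the ages.

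Gli1 encodes the Gli factor that acts as an activator only and is the usual readout of pathway activity. It has 2 protein-coding TSSs on the minus strand of chromosome 10, at 127341974 and 127339959. No library but middle-aged 3 had a peak within 1000 bp of the first, and that peak (chr10:127342361-127342560) had a rank of 23.2. Every library had a peak within a merged intronic region (chr10:127338893-127339542), with summits between 551 and 934 bp downstream of the second TSS. The peak of middle-aged 2 in it (chr10:127339290-127339489) did not overlap any young peak, so that no single site was shared by all 6 libraries. The region is also inside Gm47200, a gene on the opposite strand.

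The best intronic Gli1 peak of each library ranked 36.4, 61.3 and 43.2 in young and 76.7, 8.07 and 74.1 in middle-aged libraries. Middle-aged 1 and 3 lay above all young libraries and middle-aged 2 below all of them. The means of 47.0 ± 12.8 and 53.0 ± 38.9 (SD, n = 3) differed by 6.00 (exact permutation test, p = 0.8), and without middle-aged 2 the difference was 28.4. Without middle-aged 1 it was -5.88 and without middle-aged 3 it was -4.57, so its direction rested on single libraries. The fold was 4.41, 6.67 and 5.88 in young and 8.79, 3.61 and 8.10 in middle-aged libraries. The peak of middle-aged 2 was not the same site: its summit lay 573 bp downstream of the second TSS, whereas in the other libraries the best summit lay between 901 and 934 bp downstream. Middle-aged 3 had a peak at both places. With a TSS window of 500 bp, Gli1 had a TSS peak in 2 libraries only.

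The sequence around the common Gli1 summit (mm10, chr10:127338886-127339185, minus strand) is shown because it carries the only accessible site that 5 libraries shared in the gene. It contained neither the GLI letters nor any other motif searched.
Gli1 +2.9 kb: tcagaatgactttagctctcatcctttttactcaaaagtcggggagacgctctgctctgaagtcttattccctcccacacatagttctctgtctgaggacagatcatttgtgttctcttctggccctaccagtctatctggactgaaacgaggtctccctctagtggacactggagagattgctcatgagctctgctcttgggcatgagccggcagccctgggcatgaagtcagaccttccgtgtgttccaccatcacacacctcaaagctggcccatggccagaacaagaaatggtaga

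Upstream of Gli1, a region at 12.8 kb (chr10:127354522-127354877) had the highest mean rank away from the TSS windows. It was called in young 1 and young 3 at ranks of 0.782 and 12.5, reached 52.3, 43.5 and 42.0 in middle-aged 1, 2 and 3, and was not called in young 2. It lies at the start of Inhbe, which encodes an inhibin beta subunit, and cannot be assigned to Gli1. Over the 6 libraries, the gene whose TSS peak ranks were most like those of Gli1, among 10569 genes, was Hpdl, with a mean absolute difference of 8.30 percentile points. No such comparison was made for Ptch1, which lacked a TSS peak in 4 libraries.

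Gli2 encodes the main activator of the pathway. Its TSS peak (chr1:119053318-119053867) ranked 38.1, 34.9 and 7.80 in young and 19.0, 20.1 and 68.3 in middle-aged libraries. Middle-aged 3 stood above all the others, while middle-aged 1 and 2 lay below young 1 and 2. The means of 26.9 ± 16.6 and 35.8 ± 28.1 (SD, n = 3) differed by 8.86 (exact permutation test, p = 0.8), and the difference was -7.38 without middle-aged 3 and -0.71 without young 3. The fold was 4.62, 4.61 and 4.03 in young and 3.98, 4.22 and 6.85 in middle-aged libraries.

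The Gli2 locus held 9 regions, more than that of any other of the 8 genes, and 8 of them were in introns. Of these, 4 were called in young 1, young 2 and all middle-aged libraries and in no case in young 3, which had a peak at the Gli2 TSS alone. They lay 19.5, 59.7, 76.8 and 162 kb downstream of the TSS. The strongest on average (chr1:118993743-118994112, 59.7 kb) ranked 14.3 and 34.1 in young 1 and 2, against 53.2, 39.0 and 43.1 in middle-aged 1, 2 and 3. At the most distant (chr1:118891365-118891789) the ranks were 3.04 and 13.6 in young and 61.2, 58.3 and 17.0 in middle-aged libraries. Because young 3 lacked a peak at all 4 sites, the ages were not compared there. The share of regions over the whole data with such ranks was not counted. The region at 76.8 kb ranked 33.1 and 34.7 in young 1 and 2, against 40.9, 0.582 and 34.5 in the middle-aged libraries, and that at 19.5 kb ranked 5.78 and 33.98 against 34.8, 9.20 and 42.6. Each of the other 4 intronic regions was called in 1 library, 3 of them in a middle-aged one. Young 3 also had the lowest background, and the part of depth in these gaps was not tested.

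The region at 59.7 kb is printed (mm10, chr1:118993767-118994066, minus strand) as the strongest intronic site of Gli2, with an AP-1 site, the binding letters of Fos and Jun factors, in capitals.
Gli2 +59.7 kb: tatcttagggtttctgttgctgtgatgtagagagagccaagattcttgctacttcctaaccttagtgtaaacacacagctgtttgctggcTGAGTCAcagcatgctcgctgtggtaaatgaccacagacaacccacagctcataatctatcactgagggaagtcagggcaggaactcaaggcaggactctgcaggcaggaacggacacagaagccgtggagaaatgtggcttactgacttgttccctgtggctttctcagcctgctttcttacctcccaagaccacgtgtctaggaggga

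Gli3 encodes the factor that acts mainly as the repressor of the pathway. Its TSS peak (chr13:15462905-15463779, 5′ UTR) ranked 24.7, 63.9 and 50.8 in young and 61.4, 72.8 and 57.8 in middle-aged libraries. Young 2 lay above 2 of the middle-aged libraries, and the means of 46.4 ± 19.97 and 64.0 ± 7.82 (SD, n = 3) differed by 17.5 (exact permutation test, p = 0.3). Lists of equal length gave 6.67, and leaving out young 1 gave 6.66. The fold was 4.09, 6.60 and 6.50 in young and 7.25, 8.11 and 6.05 in middle-aged libraries.

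The Gli3 TSS region overlaps the start of Gm6556, a processed transcript. Its promoter sequence before the most upstream TSS (mm10, chr13:15463070-15463234, plus strand) is printed for its content of G and C. This was 77.0%, against 56.3% in the Sufu promoter printed above. The Gli3 sequence held no match to the motifs searched.
Gli3 promoter: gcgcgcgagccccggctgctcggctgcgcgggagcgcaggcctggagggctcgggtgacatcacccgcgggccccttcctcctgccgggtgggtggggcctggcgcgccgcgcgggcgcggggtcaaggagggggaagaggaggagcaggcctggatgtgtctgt

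The other 4 Gli3 regions were intronic and none was called in young 3. The strongest away from the TSS windows, 35.3 kb downstream of the TSS (chr13:15498363-15498646), was called in young 2 at a rank of 38.3 and in middle-aged 1 and 3 at 0.784 and 29.3. It held the RUNX letters TGTGGTT on both strands. The remaining sites beyond 50 kb ranked between 1.47 and 35.2 in the libraries that had them, and were present in both ages.

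**Figure D2:**
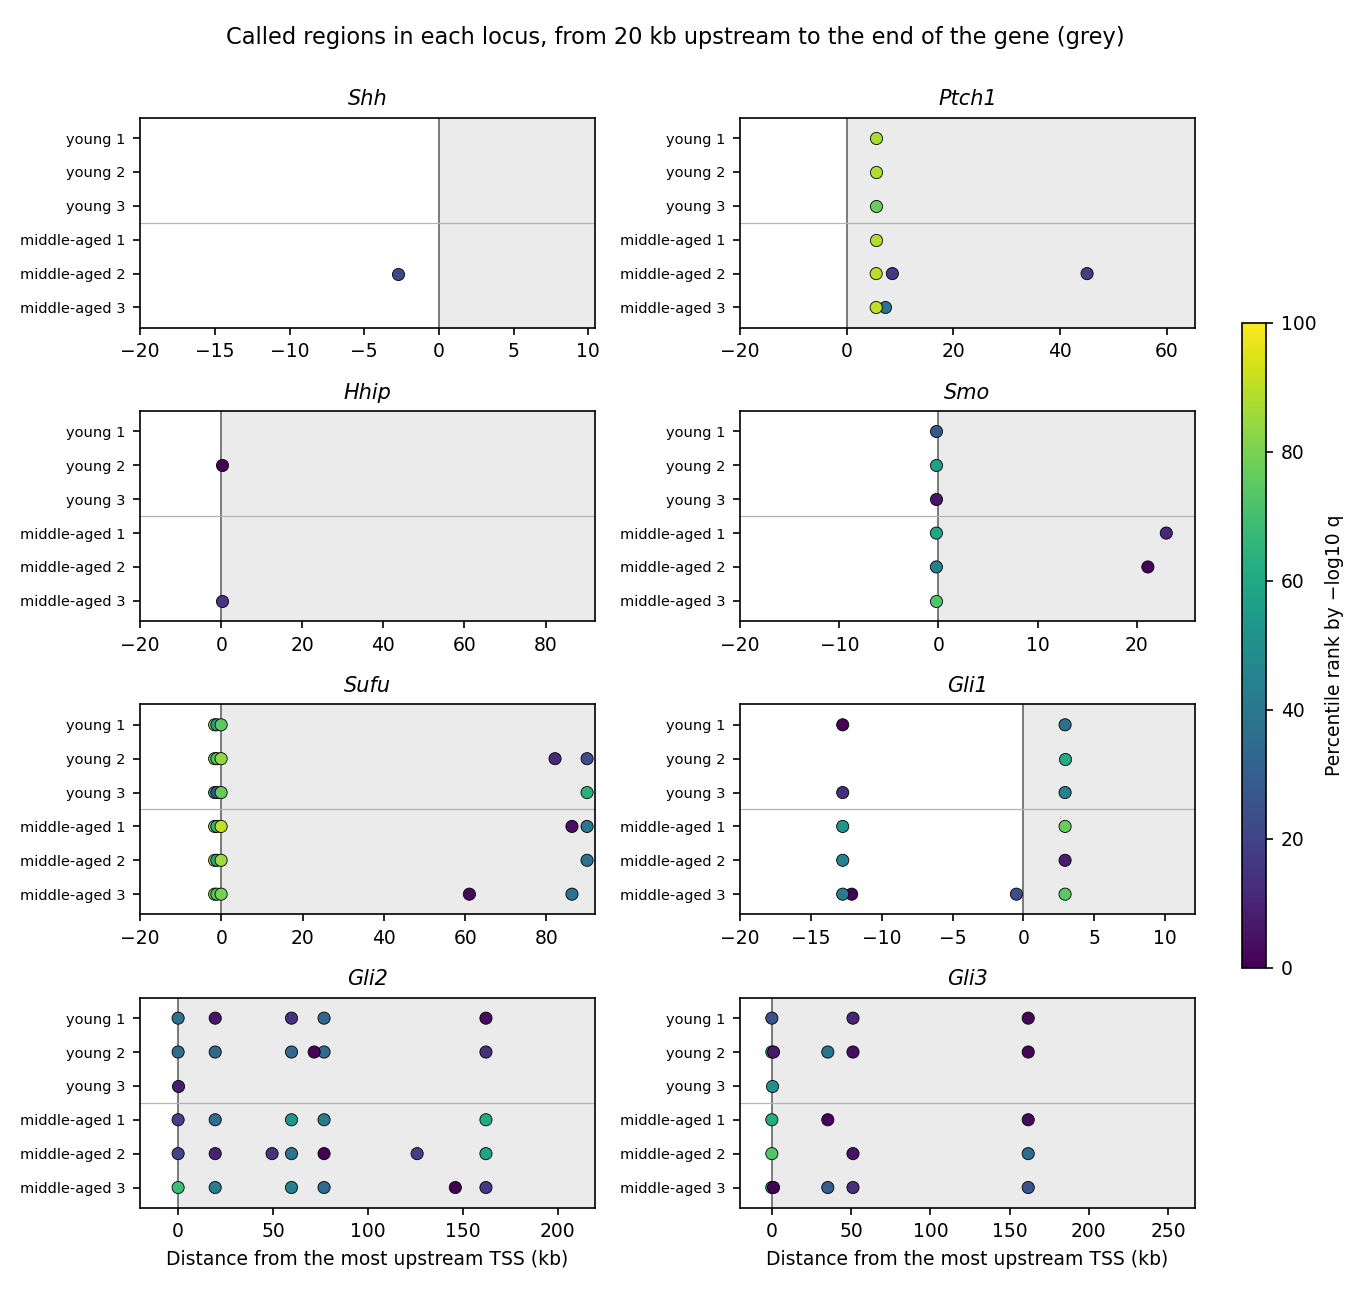
Called regions in the locus of each gene by distance from its most upstream TSS (x axis, kb, from 20 kb upstream to the end of the gene, which is shaded grey), with libraries on the y axis and colour giving the percentile rank by −log10 q. Ptch1 and Sufu carry the brightest sites, shared by all libraries, and the row of young 3 is nearly empty within Gli2 and Gli3.

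Peaks were then counted over each whole locus. The 8 loci together span 944 kb and held 16, 22 and 10 peaks in young 1, 2 and 3, against 19, 23 and 25 in middle-aged 1, 2 and 3. Young 2 exceeded middle-aged 1, and the means of 16 ± 6 and 22.3 ± 3.06 (SD, n = 3) gave a ratio of 1.40 (exact permutation test, p = 0.2). The corresponding ratio over all protein-coding loci was 1.26. With equally long lists both ages had a mean of 9.33 peaks, and the ratio over all loci was not counted on those lists. The density was 2.03 peaks per 100 kb in the Hedgehog loci and 2.78 over all loci.

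In single loci the number of peaks was 1, 1 and 1 in young and 1, 3 and 2 in middle-aged libraries for Ptch1, and 5, 6 and 1 against 5, 7 and 6 for Gli2. For Gli3 it was 3, 6 and 1 against 3, 3 and 5, and for Gli1 2, 1 and 2 against 2, 2 and 5. In every locus the 2 groups overlapped, and no exact permutation p was below 0.4. Over all 16870 loci with a peak, middle-aged counts were higher without overlap in 6.6% and lower in 0.0948%. At Sufu the libraries held 3, 5 and 4 peaks in young and 5, 4 and 5 in middle-aged libraries.

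**Figure D3:**
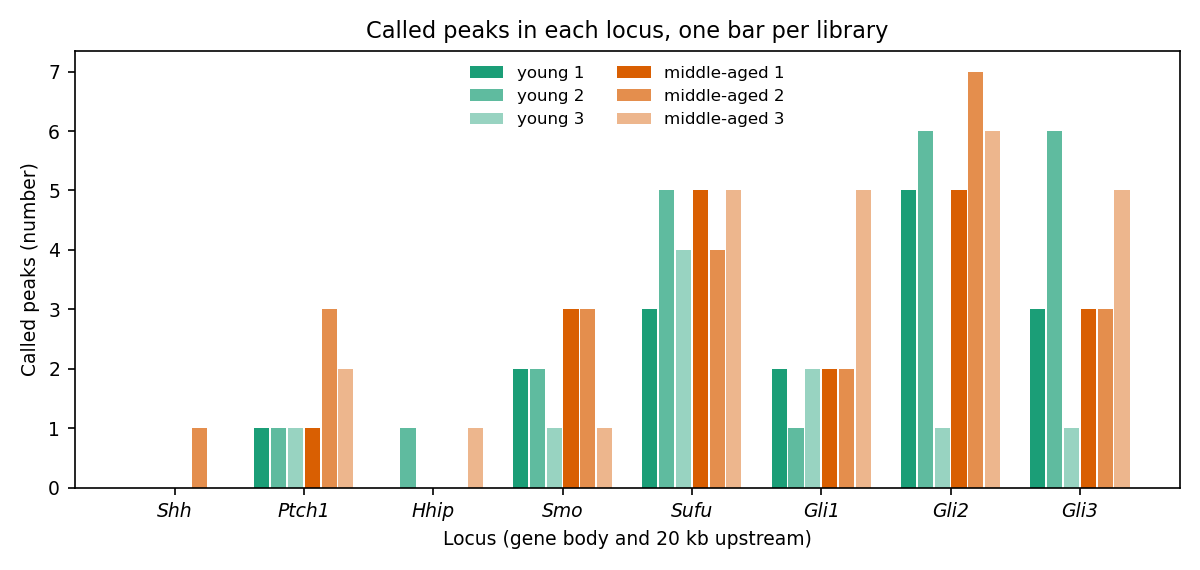
Number of called peaks (y axis) in the gene body and 20 kb upstream of each gene (x axis), 1 bar per library, young in green and middle-aged in orange shades. Bars of both ages overlap at every gene, and young 3 has 1 peak at Gli2 and at Gli3.

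Merged across libraries, the peaks of the 8 loci formed 34 regions. Of these, 8 (23.5%) were called in all 6 libraries, against 35.1% of all 63840 regions of the data. A further 12 were called in 2 to 5 libraries and 14 (41.2%) in 1 library, against 23.0% of all regions for the latter. Of the 14, 12 (85.7%) were middle-aged, as were 74.5% of all regions called once. No region was called in all middle-aged and no young library, against 2.21% of all regions, and none in all young and no middle-aged library, against 0.036%. Regions seen in middle-aged libraries only numbered 13 (38.2%, against 25.4% of all regions), and those seen in young libraries only numbered 2 (5.88%, against 6.43%). Most of the 34 regions were intronic (21) and 6 lay upstream of the gene. In young 3, with the lowest background, 2 intronic regions were called, against 8 to 14 in the other libraries.

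Set beside all genes with a TSS peak in every library, the Hedgehog genes other than Sufu had weak TSS peaks. The median mean rank of the 5 genes was 49.96, against 84.9 over all such genes. Sufu, with a mean rank of 81.7, stood near the latter. All 5 ranked higher on average in middle-aged libraries, but so did 93.9% of the 10569 genes, and the median difference was 8.86 for the 5 genes and 4.97 over all. The middle-aged lists were longer. With equally long lists, 9.51% of all genes with a TSS peak in every list ranked higher without overlap and 3.71% lower. The part of list length in the rank differences was not tested.

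A wider list of 49 genes of ligand release, co-reception, cilium transport, Gli processing and response was read in the same way, and 29 of its genes had a TSS peak in all 6 libraries. Of the 29, 6 ranked higher in middle-aged libraries without overlap, 0 lower and 23 overlapped, against the 30.6% and 0.274% over all genes. Without young 2, 17 ranked higher (58.7% over all genes), and with equally long lists 3 (9.51% over all genes). The 29 are 59.2% of the list, against 48.4% of all protein-coding genes. By role, the genes in every library were 2 of 7 for ligands and their release, 3 of 5 for receptors and co-receptors, 9 of 13 for the cilium and signal transfer, 9 of 10 for kinases and ligases acting on Gli, 3 of 3 for genes that lower Smo at the surface, and 3 of 11 for responding genes.

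Among the 6 genes without overlap, the largest difference was at Disp1, the transporter that releases lipid-bearing Hedgehog ligands, with ranks of 59.4, 65.3 and 48.8 in young and 76.8, 77.7 and 73.1 in middle-aged libraries (difference 18.1). Mycn, a proliferation factor induced by Hedgehog, ranked 44.5, 65.0 and 45.2 against 66.4, 67.6 and 68.8 (difference 16.0). Spop, the adaptor of the ubiquitin ligase that marks Gli proteins for degradation, ranked 80.4, 78.1 and 77.5 against 86.7, 89.7 and 87.7 (difference 9.39). For Ift172, a cilium transport protein, the difference was 4.35. Each had the smallest possible p of 0.1 in the exact permutation test. The values of the 3 middle-aged libraries lay close together in Disp1, Mycn and Spop, and at Mycn young 2 came near them. Larger differences, between 22.2 and 27.4, were found at Gas1, Kif7, Mgrn1, Ccnd2 and Evc2, where the ages overlapped.

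Of the 42 wider genes with a TSS peak in any library, 2 (4.76%) had it in at least 2 more middle-aged than young libraries, near the 4.51% over all genes, and 0 the opposite. Ccnd1, which encodes cyclin D1 and responds to the pathway, had a TSS peak ranked 43.8 in middle-aged 1 and 23.0 in middle-aged 3, and none in the young libraries. Foxc2, a forkhead factor of mesenchyme from the list of responding genes, had one in young 2 at a rank of 29.7 and in middle-aged 1, 2 and 3 at 24.9, 0.409 and 32.7.

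**Figure D4:**
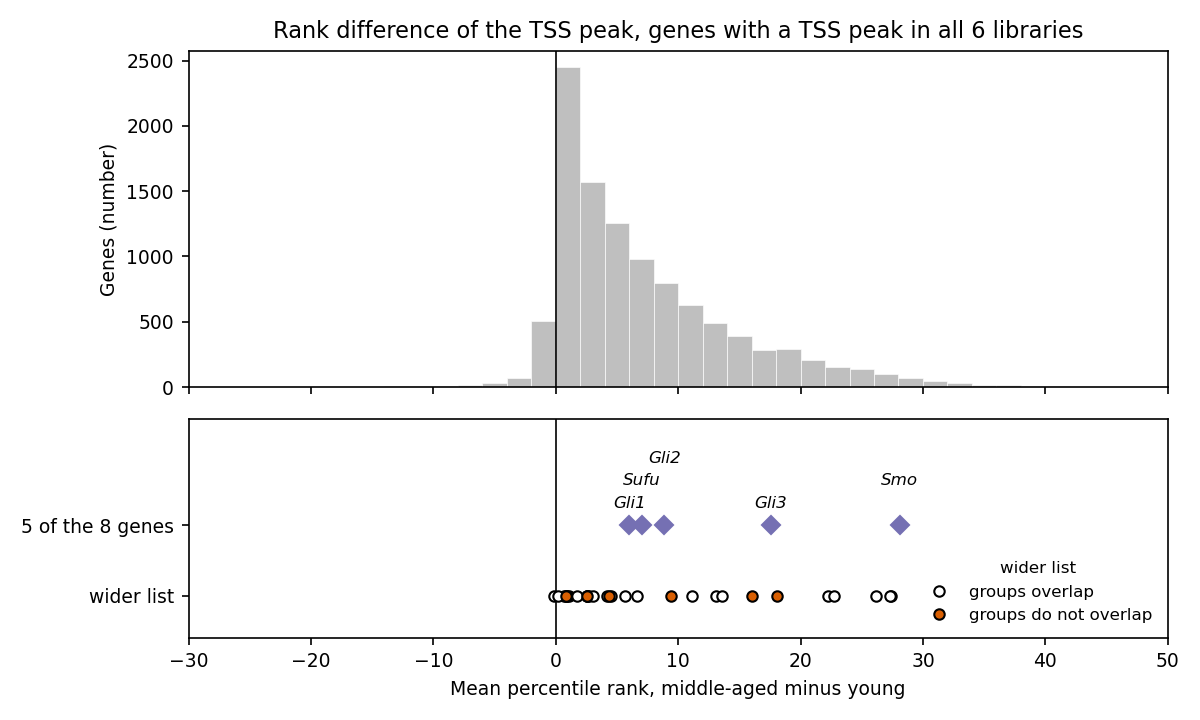
Difference in the mean percentile rank of the TSS peak, middle-aged minus young (x axis), with the number of all genes with a TSS peak in all 6 libraries in the upper panel (y axis, bins of 2 percentile points) and, below, the 5 Hedgehog genes as diamonds and the wider list as circles, filled where the groups do not overlap. All 5 Hedgehog genes lie to the right of zero between 6.00 and 28.1, as does most of the distribution of all genes, whose median is 4.97.

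The sequences of the 34 regions were searched on both strands, over 300 bp about the summit of the highest-ranking peak, for the letters GACCACCCA (GLI), TGANTCA (AP-1), CCCNNGGGA (EBF) and TGTGGTT (RUNX). GLI letters were found in 1 of the 34 regions, the Ptch1 site printed above, and in 0.164% of all 63840 regions. AP-1 letters occurred in 5 (14.7%, against 19.0% of all), RUNX letters in 3 (8.82%, against 11.3%) and EBF letters in 1 (2.94%, against 6.38%). Of the 5 AP-1 matches, 3 lay in Gli2 introns, at 49.5, 59.7 and 76.8 kb. No matches overlapped one another, and a match is a description of the letters, not evidence of binding.

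Promoters, from 250 bases before to 50 after the start, were taken from RefSeq (GRCm38.p6) for 6 of the 8 genes. Shh and Gli1 had no entry. The number of CpG dinucleotides was 47 in Ptch1, 39 in Gli3, 30 in Hhip, 28 in Gli2, 17 in Smo and 12 in Sufu. The median was 7 over 32851 promoters and 23 over the 10030 with a peak in all 6 libraries, so that Smo and Sufu lay below the latter. These starts are not all the TSSs used above: RefSeq places Smo at 29735497 and Gli3 at 15463723, and Ptch1 at 63565735, 1 of its 5 TSSs. The Gli3 window overlapped a peak in 3 libraries and that of Smo in 5, although both genes had a TSS peak in all 6. Over these windows, the order of CpG number was not that of the number of libraries with a peak. The promoter of Ptch1, the richest of the 6, overlapped no peak in any library, and that of Sufu, the poorest, overlapped one in all 6. Among the 474 promoters with at least 47 CpG, 70.3% overlapped a peak in all 6 libraries and 9.07% in none. None of the 6 promoters held any of the 4 motifs. Over all 32851 promoters the shares were low too: 0.253% for GLI, 7.81% for AP-1, 6.56% for EBF and 5.27% for RUNX.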

How the data were processed

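ATAC-seq libraries of cultured SSPCs, 3 young and 3 middle-aged by their titles, were analysed. Per the methods, the authors made FASTQ files with bcl2fastq, aligned reads to mm10 with Bowtie2, removed duplicates with Sambamba and called peaks with MACS; each deposited list holds 1 library. The authors deposited for each peak a score, a fold enrichment (a ratio of summit pileup to local background, each plus 1), a −log10 p-value and a −log10 q-value. The score and widths were not tested. Whether reads were shifted for the transposase is not given in the sources used here. DiffBind, used by the authors, needs reads and was not run.

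Pileup and background were solved from the fold and −log10 p, and the pileup came out whole within 0.1 for 100% of peaks in every list. The lowest background served as relative depth, and no read total is known. Peaks were ranked by −log10 q within a list. TSSs (54361) came from GENCODE, regions from peaks merged at 1 bp of overlap or more. Counts and ranks were compared by exact permutation, two-sided, with no adjustment over the 8 genes, using Python 3.11.15, numpy 2.4.6 and scipy 1.17.1; scripts were tested on simulated data. Genes named are the 8, their strongest region away from TSSs, and of the wider list the 4 with the largest difference without overlap and any whose presence differed by 2 or more libraries; other regions named were chosen after their values were seen. The genes and lists were chosen with earlier results of these data known. Other settings tried were a stricter −log10 q (5), equally long lists, thinning to the lowest background, other windows, fold or height in place of rank, a replicate block and leaving out each library.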

Additional observations from a re-analysis of the deposited data

How the results depend on the processing

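Of 8 results on the genes as a group, the numbers with a lower rank in middle-aged libraries and of regions in all young libraries only stayed at 0 for the 8 genes under all alternatives run. The direction of the number of genes with a TSS peak per library (0.667 more in middle-aged) turned with equally long lists, to -0.667, and was 0 with a TSS window of 2000 bp. The ratio of peaks in the loci was 1.00 with equally long lists. Neither was counted over all genes under these settings. Genes of the 8 ranking higher without overlap numbered 1 with a window of 2000 bp (Ptch1, through its intronic region; 30.9% over all genes) and 1 by summit height (Sufu; 60.7% over all genes), and between 0 and 3 when a library was left out. The 3 were Smo, Sufu and Gli3 without young 2, where the share over all genes was 58.7%, and the shares without each of the other libraries were between 32.7% and 41.6%. Regions in all middle-aged libraries only numbered 1 after thinning, in a Gli3 intron (chr13:15624715-15625048), and between 0 and 1 when a library was left out. A reciprocal overlap of 50% also gave 1, the Gli3 TSS region (chr13:15462905-15463779). Every young library had a peak there, but each covered less than 50% of the merged region, so the setting dropped it for its width. The shares over all regions under these settings were not counted. In the wider list, genes ranking higher numbered 3 with equally long lists (9.51% over all genes), 11 by fold (38.4%), 15 by height (60.7%) and between 7 and 17 with a library left out, the most without young 2; genes ranking lower numbered between 0 and 1. With a library left out, the number of genes with a TSS peak differed by between 0.167 and 1.17 and the ratio of peaks ran from 1.18 to 1.72.

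For single genes, equally long lists turned the difference in peaks per locus to -0.333 at Smo, Sufu and Gli3. Leaving out 1 library took the rank difference from -5.88 to 28.4 at Gli1 and from -7.38 to 17.2 at Gli2, and the peak difference at Gli3 from -0.833 to 1.67. A replicate block, pairing equal numbers, gave a mean ratio of 1.58 for the peaks (p = 0.25 in an exact sign permutation, its smallest) and 0.667 for the genes with a TSS peak, and changed no direction. Deviations of equally numbered libraries correlated between -0.0414 and 0.00276 over 22403 regions, so the numbers do not pair them. The cause of these changes was not tested. No read depth is known, and an absent peak is not a closed site.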
